A study of Mus musculus with 16 samples.

Results

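The mitochondrial ribosome translates the few messages that mitochondrial DNA encodes, all of them for subunits of the respiratory chain and ATP synthase. Its protein subunits are encoded in the nucleus, made in the cytosol and imported, and they assemble with ribosomal RNA that is transcribed inside the organelle, so a working particle draws on both genomes. Many of these proteins descend from bacterial subunits, and others are found only in mitochondria.

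The genes described here are the 77 mouse genes whose symbol starts with Mrpl or Mrps followed by a number, pseudogenes left out, among 32989 gene identifiers measured. By their place in the particle, 50 encode large subunit proteins, of which 29 have a bacterial counterpart, and 26 encode small subunit proteins, of which 16 have one. Mrps18a and Mrps30 carry a small subunit name but sit in the large subunit and were counted there. Of the related Mrps18a, Mrps18b and Mrps18c, only the last was counted as having a bacterial counterpart. Mrps36 is no ribosome subunit at all: its protein belongs to the 2-oxoglutarate dehydrogenase complex of the citric acid cycle.

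Epidermal cells of 4 C57BL/6J mice in telogen, the resting phase of the hair cycle, were grown for 2 weeks as 3D–3C organoids, a culture in which hair follicle stem cells (HFSCs) and progenitors form side by side. For the last 72 h the organoids either stayed untreated or were given the polyamine derivative N1-acetylspermidine (N1-AcSpd). Sorting then separated progenitors (α6+/CD34-) from HFSCs (α6+/CD34+). Each mouse gave 1 library of each of the 4 groups, 16 libraries in all, so a group is 4 animals and the groups hold the same mice. RNA was read from transcript 3′ ends with unique molecular identifiers (UMIs), and the deposited values are UMI counts per gene.

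Summed over genes, the libraries held 15480075 to 29074855 UMI counts. Levels below are in CPM, the count of a gene relative to the library total after scaling between libraries by the trimmed mean of M values (TMM). A gene was called changed at an adjusted p below 0.05 in edgeR's quasi-likelihood test over 19049 genes, those whose count averaged 5 or more. This test did not pair the libraries of a mouse. A fit with the mouse as a block did, and its calls are given where named. Cd34 itself stood at 2.88 to 3.65 CPM in the 8 CD34- libraries and at 43.4 to 64.1 CPM in the 8 CD34+ libraries. Markers of differentiated keratinocytes summed to 1038 to 1585 CPM in CD34- and 300 to 408 CPM in CD34+ libraries. Fibroblast markers summed to 0.171 to 1.52 CPM, immune markers to 0 to 2.08 CPM and melanocyte markers to 28.0 to 36.1 CPM. The endothelial list summed to 1687 to 2055 CPM, nearly all of it from Pecam1, while Kdr had at most 7 UMIs in a library. These are bulk libraries of sorted cells, so fewer cells of a kind and less RNA per cell cannot be told apart.

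All 77 genes had counts in every library, the lowest being 117 UMIs, and all 77 were tested. Together they took 0.557% to 0.61% of the counts of a library summed over genes, with Mrpl15 and Mrps26 included. Their median level was 42.5 CPM, and 69 of the 77 lay between 10 and 100 CPM. Within a group the coefficient of variation over mice had a median of 4.24%. Mrps11 (8.41 CPM), Mrps2 (8.98 CPM) and Mrps31 (10.5 CPM) were the lowest on this scale and Mrps18c (219 CPM), Mrps26 (552 CPM) and Mrpl15 (1472 CPM) the highest. Per kilobase of annotated exon the same genes stood at 3.87, 3.08, 3.2, 204, 127 and 173 CPM. As reads came from transcript 3′ ends, counts need not scale with exon length, so these ratios do not rank the genes by level.

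The levels of Mrpl15 and Mrps26 could not be assigned to those genes alone. Mrpl15 shared its count profile across the 16 libraries, to within 2.5% of the summed counts, with 12 other genes, most of them on other chromosomes, among them the pseudogene Gm3953 (0.677% difference) and Il23a (2.2%), an interleukin gene. Mrps26 had the counts of Sag, a photoreceptor gene, to within 8.49%. More widely, 30 of the 77 genes share 31-base stretches with over 100 other genes, counted over all stretches of the gene together. These 30 are called genes with widely shared stretches below, and the other 47 share them with 100 genes or fewer. Of all 77, 41 overlap another annotated gene and 11 have counts almost equal to those of such a gene or of a copy. Mrpl15 and Mrps26 together made up 35.1% of the summed level of the 77 genes, so sums below leave them out.

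Summed over the other 75 genes, the level was 3782, 3725, 3768 and 3734 CPM in untreated CD34- cells of mice 1 to 4 and 3773, 3905, 3862 and 3972 CPM after N1-AcSpd. In CD34+ cells it was 3628, 3657, 3670 and 3531 CPM untreated and 3731, 3709, 3837 and 3720 CPM after N1-AcSpd. The treated libraries were above the untreated ones in CD34+ cells without overlap, and in CD34- cells 1 treated library, from mouse 1, lay within the untreated range. The summed level of these 75 genes therefore moved by a few percent, while single genes moved in opposite directions. Untreated HFSCs lay below untreated progenitors without overlap. Over all 77 genes the means of untreated progenitors and HFSCs were 5979 and 5416 CPM. Over the 47 genes without widely shared stretches they were 1951 and 1944 CPM.

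**Figure D1:**
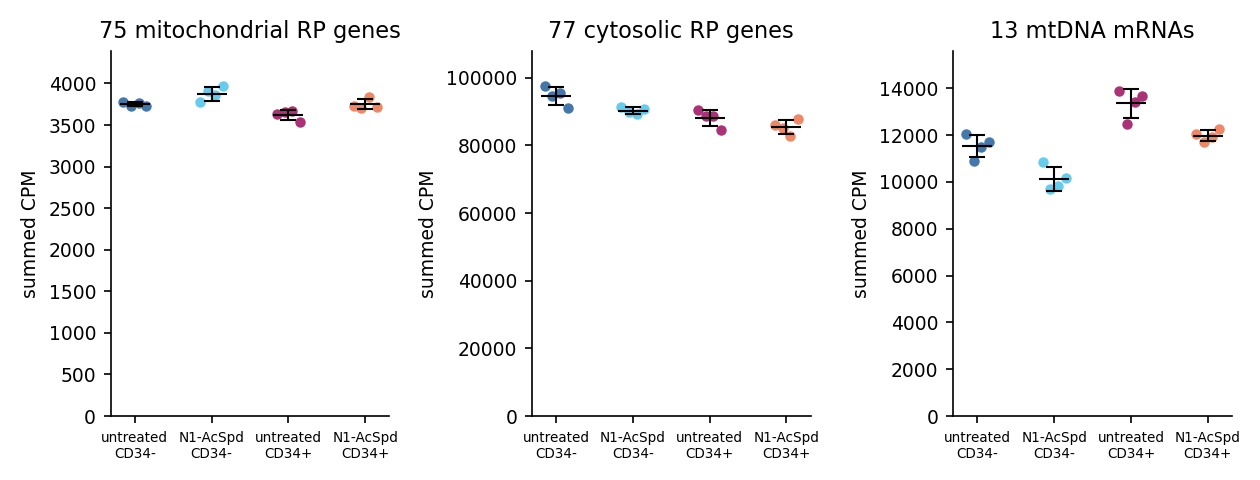
Summed CPM (y axis, from 0) of 75 mitochondrial ribosomal protein (RP) genes, 77 cytosolic RP genes and 13 mRNAs of mitochondrial DNA in each library (points), with mean and SD of the 4 mice per group. The mitochondrial RP sums lie between 3531 and 3972 CPM in all 16 libraries, and the mtDNA mRNA means are lower after N1-AcSpd in both cell types.

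The first comparison set HFSCs against progenitors from the same organoids. In untreated cells 12 of the 77 genes were higher in CD34+ cells and 17 were lower (edgeR, adjusted p below 0.05), that is 15.6% and 22.1% of them. Of all genes tested, 16.1% were higher and 16.1% lower. The median log2 fold change was -0.02 over the 77 genes and 0.02 over all genes tested, and each of the 29 called genes moved the same way in 4 of 4 mice. Called differences were small: higher genes rose by 9.46% to 25%, and the lower ones lay down to 40.8% below the progenitor level.

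After N1-AcSpd 11 genes were higher and 19 lower, against 16.5% and 16.8% of all genes tested. Of the genes higher in untreated cells, 10 were called higher again, which is 83.3% of the untreated and 90.9% of the treated list. Of the lower genes 15 were shared, 88.2% and 78.9% of the lists. No library is used in both comparisons, although the mice are the same. The direction was the same in both for 80.5% of the 77 genes and for 80.1% of all genes tested. Over the 77 genes the log2 fold changes of both comparisons had a Pearson r of 0.92 and a Spearman rho of 0.85, across genes that are not independent replicates. Over all genes tested these were 0.27 and 0.69, but that set includes genes averaging only 5 counts, with untreated values from -15.8 to 14.1. The 77 genes had at least 117 UMIs in every library, so the sets were not matched in level.

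The split between higher and lower depends on the scaling. Scaled to library totals without TMM, the median of all genes tested moved to 0.14 in untreated and 0.11 in treated cells, and the calls became 31 higher and 4 lower, and 28 higher and 6 lower. Of all genes, 25.5% were then higher and 9.23% lower in untreated cells, and 25.2% and 9.99% in treated cells. Relative to that median the 77 genes stood at -0.04 and 0.01, close to the -0.05 and 0.01 found with TMM. Directions of single genes below are therefore relative to the bulk of the transcriptome.

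**Figure D2:**
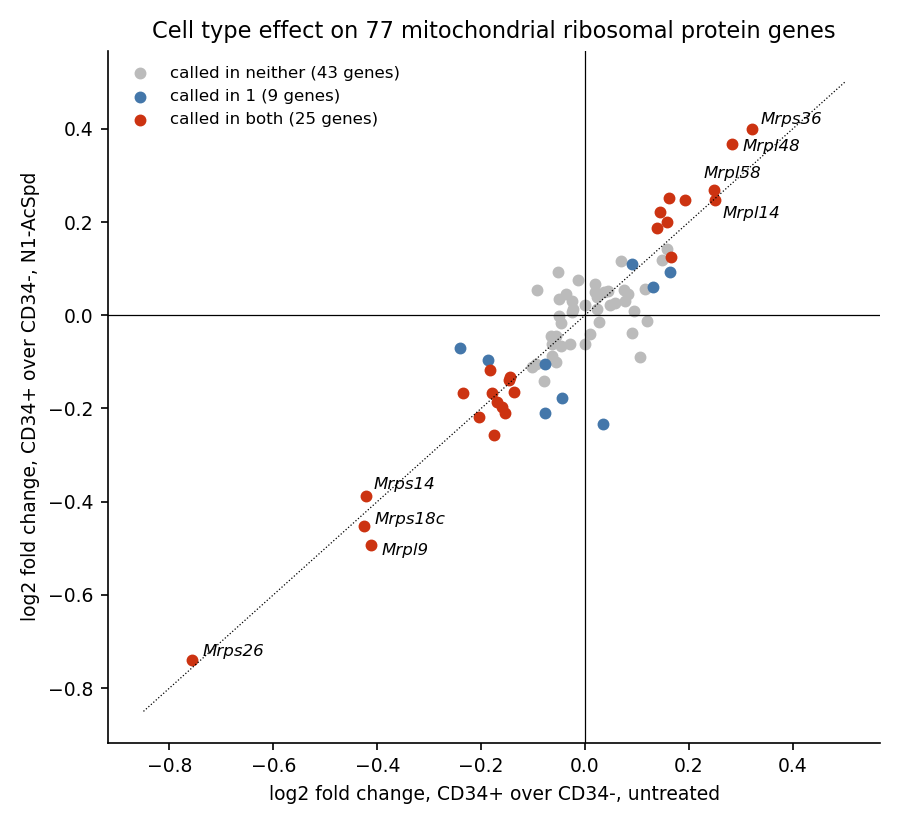
Log2 fold change of CD34+ over CD34- cells for the 77 genes, untreated on the x axis and after N1-AcSpd on the y axis, 1 point per gene, with a dotted line where both are equal. The 25 genes called in both comparisons lie close to that line, from Mrps26 at the lower left to Mrps36 at the upper right.

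Mrps36, on the minus strand of chr13:100735955-100744659 (GRCm38, ENSMUSG00000061474), was the most raised in HFSCs. It was measured at 37.9, 39.0, 36.6 and 39.8 CPM in untreated progenitors and at 48.0, 47.3, 47.3 and 49.0 CPM in untreated HFSCs. Treated progenitors had 35.4, 35.3, 39.9 and 37.8 CPM and treated HFSCs 47.4, 50.04, 47.7 and 50.6 CPM. No HFSC library overlapped a progenitor library. The log2 fold change was 0.32 ± 0.0423 (SE, adjusted p = 6.25e-05, edgeR) untreated and 0.40 ± 0.0423 (adjusted p = 7.52e-06) treated. As its protein serves the citric acid cycle, the most raised gene of the family by name is not a ribosomal one.

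Among true subunits, Mrpl58 encodes a peptidyl-tRNA hydrolase built into the large subunit, which can release stalled chains. Its level was 38.9, 37.8, 39.8 and 39.9 CPM in untreated progenitors and 44.2, 46.1, 47.7 and 47.7 CPM in untreated HFSCs. Its log2 fold change was 0.25 ± 0.0448 untreated (adjusted p = 0.000801) and 0.27 ± 0.0447 treated (adjusted p = 0.000358), with no overlap between cell types. Mrpl58 shares no 31-base stretch with another gene.

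Further genes moved in the same direction. Mrpl48 stood at 30.6 ± 1.87 CPM (SD, n = 4) in untreated progenitors and 37.2 ± 1.27 CPM in HFSCs, but it shares 31-base stretches with 2841 genes. Mrpl14, which lies where the subunits meet, went from 45.4 ± 2.44 to 54.0 ± 3.96 CPM. Mrps16, a small subunit protein of bacterial descent, went from 70.6 ± 3.07 to 79.0 ± 3.37 CPM, and after N1-AcSpd from 68.2 ± 2.24 to 81.2 ± 2.76 CPM. Mrps35 and Mrps24, both of the small subunit, were higher by 0.25 and 0.22 on the log2 scale in treated cells, and Mrpl4, which lines the exit tunnel, by 0.20. Mrpl2 and Mrpl24 were higher by 0.17 and 0.16 in untreated cells, and the latter was not called in treated cells (0.09, adjusted p = 0.101). The untreated calls of Mrpl2 without mouse 3 (adjusted p = 0.0523), Mrpl24 without mouse 2 (0.0566), Mrps35 without mouse 4 (0.0543) and Mrps16 without mouse 2 or 4 (0.0602 and 0.0628) were lost.

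The lower side was led by genes with widely shared stretches. Mrps14, of the small subunit head, on the plus strand of chr1:160195215-160202170 (ENSMUSG00000058267), was measured at 191, 183, 205 and 197 CPM in untreated progenitors. In untreated HFSCs it was at 139, 151, 150 and 139 CPM. The log2 fold change was -0.42 ± 0.0462 untreated (adjusted p = 1.2e-05) and -0.39 ± 0.0462 treated (adjusted p = 2.06e-05), again with no overlap.

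Mrpl9, a large subunit protein of bacterial descent, read 24.95, 27.4, 26.9 and 26.9 CPM in untreated progenitors and 20.1, 20.9, 21.4 and 17.4 CPM in untreated HFSCs. It was lower by 0.41 untreated and 0.49 treated on the log2 scale (adjusted p = 0.000213 and 3.71e-05). Mrps18c fell from 241 ± 13.9 to 179 ± 6.13 CPM and Mrps26 from 653 ± 33.5 to 387 ± 28.2 CPM. The last of these changes, -0.76 ± 0.0682 in log2, sat beside -0.93 for Sag, whose counts Mrps26 shares. For Mrps14, Mrpl9, Mrps18c and Mrps26, 1894, 1120, 171 and 1275 other genes share at least 1 of their 31-base stretches. The part of this sharing in the difference was not tested.

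Lower genes without such stretches changed less. Mrpl12, of the flexible stalk that recruits translation factors, was at 93.4 ± 3.46 CPM in untreated progenitors and 79.3 ± 4.21 CPM in HFSCs (log2 fold change -0.24, adjusted p = 0.00138). Mrps6 went from 20.998 ± 0.909 to 17.8 ± 1.57 CPM (adjusted p = 0.0321), a call lost without the library of untreated CD34- mouse 1 or 2 or of untreated CD34+ mouse 1, 2 or 4 (adjusted p up to 0.0925), and without all libraries of mouse 1, 2 or 4 (up to 0.142). Mrps22 went from 16.0 ± 0.171 to 14.1 ± 0.351 CPM (adjusted p = 0.0156), with adjusted p up to 0.0760 when all libraries of mouse 1, 2 or 4 were left out. Mrpl19 was lower by 0.20 and 0.22 in log2 and carries a stretch found in 1636 genes. Mrpl45, a subunit that faces the inner membrane and holds a stretch found in 540 genes, was lower by 0.18 untreated and 0.26 treated. Mrpl37 was called in treated cells, lower by 0.21, but not without mouse 2 or 4 (adjusted p = 0.120 and 0.0954).

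Counting only the 47 genes without widely shared stretches, 6 were higher (12.8%) and 7 lower (14.9%) in untreated HFSCs. Of all genes tested, 16.1% were higher and 16.1% lower. After N1-AcSpd the 47 genes counted 6 higher (12.8%) and 8 lower (17%), beside 16.5% and 16.8% of all genes. Their medians were 0.00 and 0.01. By subunit, 8 of 50 large subunit genes (16%) were higher and 8 (16%) lower in untreated cells. Of 26 small subunit genes 3 (11.5%) were higher and 9 (34.6%) lower. Whether the subunits differ was not tested.

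**Figure D3:**
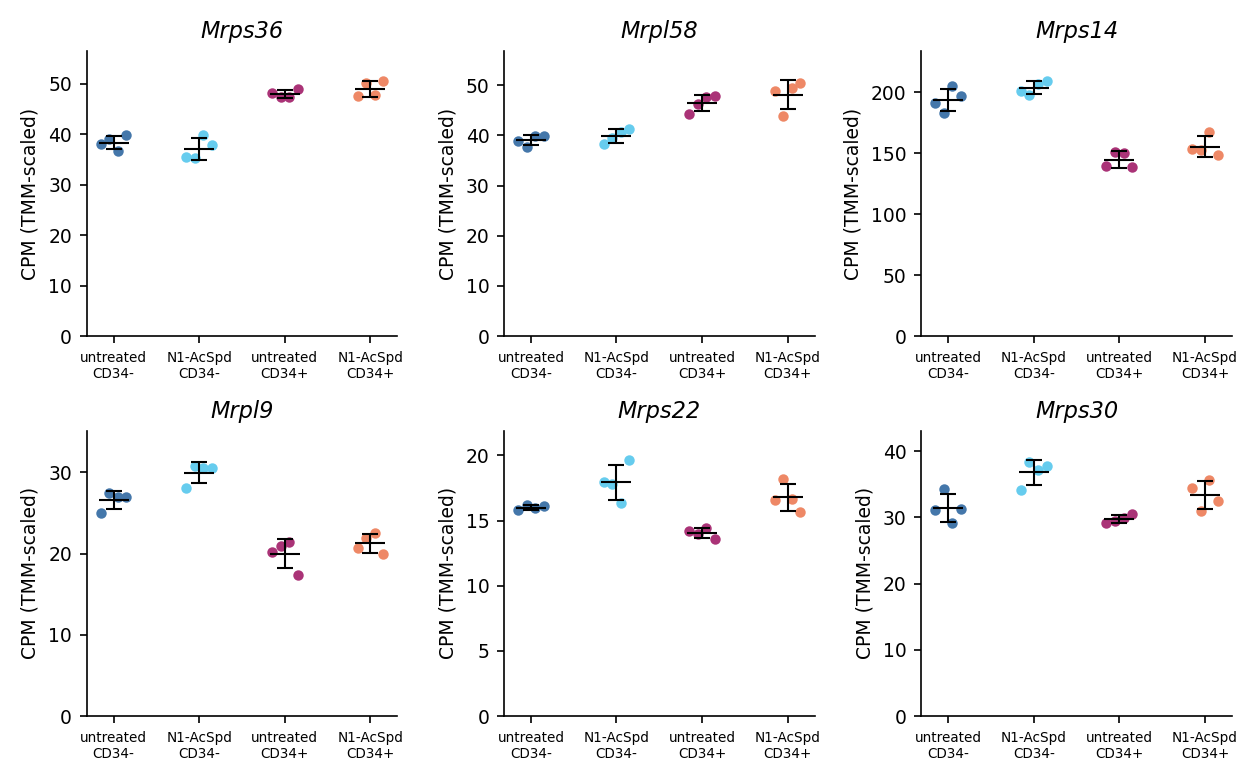
CPM (y axis, from 0) of Mrps36, Mrpl58, Mrps14, Mrpl9, Mrps22 and Mrps30 in each library (points, 4 mice per group) with mean and SD. Mrps36 and Mrpl58 lie higher in both CD34+ groups, Mrps14 and Mrpl9 lie lower, and Mrps22 and Mrps30 have higher means after N1-AcSpd in both cell types.

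Mrps18a, Mrps18b and Mrps18c descend from the same bacterial subunit and take different places in the particle, the first in the large subunit and the others in the small subunit. In untreated progenitors Mrps18a stood at 26.4 ± 1.43 CPM, Mrps18b at 57.8 ± 0.816 CPM and Mrps18c at 241 ± 13.9 CPM. Between untreated HFSCs and progenitors Mrps18a had a log2 fold change of 0.04 (adjusted p = 0.621), Mrps18b was lower by 0.15 (adjusted p = 0.0403) and Mrps18c lower by 0.42. In treated cells Mrps18a was called lower in HFSCs by 0.23 (adjusted p = 0.000941), Mrps18b by 0.21 and Mrps18c by 0.45. Mrps18a overlaps Rsph9, and Mrps18b and Gm16279 have near-equal counts, so reads of each pair may be shared.

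Other parts of the mitochondrial translation system can be set beside these. Of 5 further subunit genes (Dap3, Ptcd3, Chchd1, Aurkaip1 and Gadd45gip1) none was called in untreated cells by edgeR (1 lower at an unadjusted p below 0.05) and Ptcd3 was lower by 0.18 in treated cells. Of 26 genes for mitoribosome assembly and ribosomal RNA 3 were higher and 2 lower in untreated HFSCs. The GTPases Mtg2 and Noa1, which help assemble the particle, were lower by 0.95 and 0.77 in log2, and Mterf4 and Ngrn were higher by 0.50 and 0.38. Of 12 translation factor genes 4 were higher and none lower, with Mtrf1l (0.40), a release factor, and Guf1 (0.37), an elongation factor, the most raised of those called. Of 20 genes for aminoacyl-tRNA synthesis 1 was called, Lars2, lower by 0.49, and of 10 genes for transcription and upkeep of mitochondrial DNA 1 was higher, the DNA polymerase gene Polg (0.26). In treated HFSCs these lists counted 3 higher and 4 lower, 2 and 1, 2 and 1, and 1 and 0. There Mettl15 (0.62) and Tfb1m (0.44) were the most raised assembly genes among those called, Mtfmt (-0.35) was the translation factor that fell, and Cars2 (0.33) was among the tRNA synthetase genes that rose.

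The 13 mRNAs of mitochondrial DNA, the messages these ribosomes read, were called higher in HFSCs in 6 cases untreated and 8 treated, with none lower. Their median log2 fold change was 0.11 and 0.20 (0.23 and 0.32 with library totals), which is 0.09 and 0.21 relative to all genes under either scaling. The mRNA mt-Co1, of cytochrome c oxidase, led with 0.32 and 0.38. Genes of the cytosolic ribosome, 77 in number as it happens, had 1 higher and 45 lower in untreated HFSCs and 1 and 34 in treated ones. Their median was -0.12 and -0.10 with TMM, and 0.00 and 0.02 when scaled to library totals. Relative to the median of all genes it was -0.14 and -0.09 under either scaling. For the mitochondrial family the untreated counts were 12 higher and 17 lower, as given above.

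The second question was what 72 h of N1-AcSpd did. In CD34- cells none of the 77 genes was called by edgeR, where 0.373% of all genes were higher and 0.241% lower. At an unadjusted p below 0.05, 21 were higher (27.3%) and 3 lower (3.9%), against 7.23% and 6.37% of all genes. Of the 77, 56 had a log2 fold change above 0, and their median was 0.05, or 3.7%, where that of all genes was 0.00. DESeq2 called 6 higher and 1 lower, where it called 1.71% and 1.22% of all genes. With the mouse as a block edgeR called 2 higher, Mrps18a and Mrpl45, beside 1.06% and 0.782% of all genes.

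In CD34+ cells likewise none was called by edgeR, with 0.189% of all genes higher and 0.136% lower. At an unadjusted p below 0.05, 21 were higher and 1 lower, against 6.78% and 6.37% of all genes. Here 60 of 77 were above 0, with a median of 0.05 against -0.01 for all genes. DESeq2 called 3 higher (1.74% of all genes higher and 0.52% lower), and edgeR with the mouse as a block called none (0.483% and 0.315%). These counts come from libraries that the CD34- comparison does not use, and 49 of the 77 genes (63.6%) were above 0 in both, compared with 31% of all genes tested. Across the 77 genes the effects in both cell types had a Pearson r of 0.62 and a Spearman rho of 0.64, and across all genes tested 0.03 and 0.31. The points share the mice. The sets were not matched in level: in CD34- cells the values ran from -0.15 to 0.23 over the 77 genes and from -14.9 to 16.0 over all genes tested.

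The medians by mouse show the same small step. In CD34- cells the median log2 ratio of treated to untreated over the 77 genes was 0.00, 0.06, 0.05 and 0.11 in mice 1 to 4, and in CD34+ cells it was 0.05, 0.02, 0.04 and 0.07. Mouse 1 moved least in CD34- cells and mouse 2 least in CD34+ cells. The 47 genes without widely shared stretches had medians of 0.05 in CD34- and 0.04 in CD34+ cells. Neither the direction of this median nor those of the cytosolic and mitochondrial mRNA lists changed under DESeq2's size factors or library totals.

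**Figure D4:**
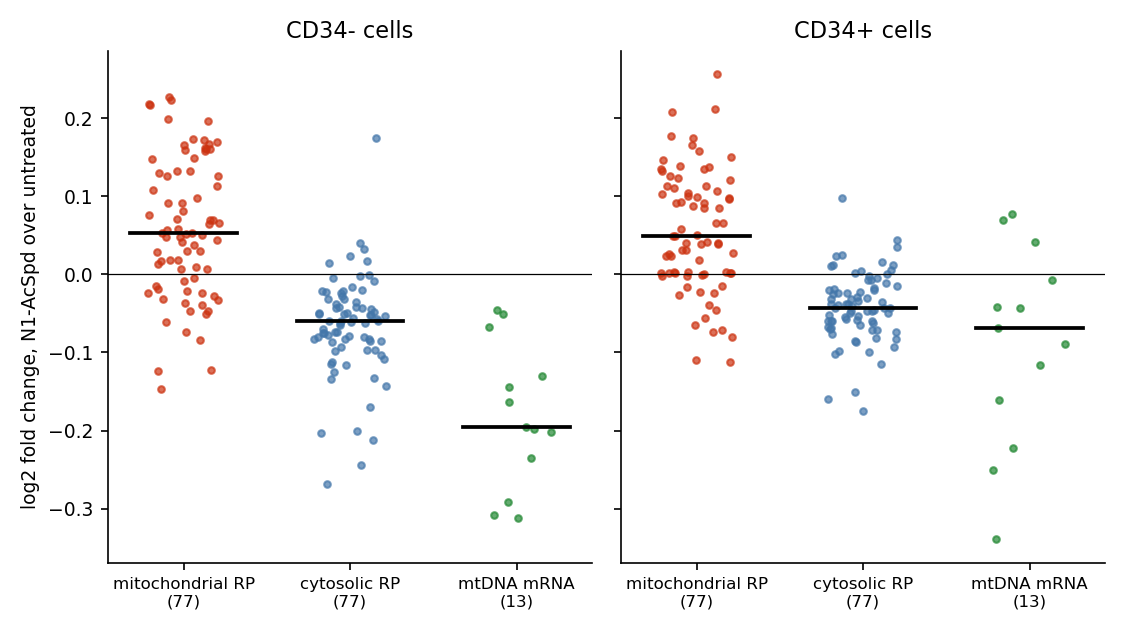
Log2 fold change of N1-AcSpd over untreated (y axis) in CD34- and CD34+ cells for 77 mitochondrial RP genes, 77 cytosolic RP genes and 13 mRNAs of mitochondrial DNA, 1 point per gene, with medians as black lines. The mitochondrial RP medians are 0.05 in both panels, and those of the other lists lie below 0.

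Averaged over both cell types, 8 treated against 8 untreated libraries, 10 of the 77 genes (13%) were called higher and none lower. Of all genes tested, 2.7% were higher and 2.17% lower, and at an unadjusted p below 0.05 the 77 genes counted 30 higher and 4 lower beside 10.6% and 10.2% of all genes. The median was 0.05 and 57 genes were above 0. With the mouse as a block the calls were 17 higher and 2 lower, beside 4.5% and 3.64% of all genes, and DESeq2 called 19 higher, beside 5.05% and 3.07%. The count rests on few animals: it was 0, 2, 1 and 2 without mouse 1, 2, 3 or 4. Calls over all genes tested fell as well, from 514 higher to 106, 98, 139 and 142. Those called lower fell from 414 to 69, 83, 77 and 135. Of the 77, 5 or 6 were called without the single library of treated CD34- mouse 4, untreated CD34- mouse 1, or untreated CD34+ mouse 1 or 4. Over all genes, 297, 306, 291 and 354 were then higher and 234, 243, 233 and 264 lower. None of the 10 called members changed by more than 0.5 in log2.

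Mrps22, a small subunit protein found only in mitochondria, on the minus strand of chr9:98588730-98601660 (ENSMUSG00000032459), changed most. In CD34- cells it was at 15.8, 16.2, 15.9 and 16.1 CPM untreated and 18.0, 17.8, 16.4 and 19.6 CPM treated. In CD34+ cells it was at 14.2, 13.9, 14.4 and 13.6 CPM untreated and 16.6, 18.2, 16.6 and 15.7 CPM treated. In neither cell type did treated and untreated libraries overlap. The averaged log2 fold change was 0.21 ± 0.0377 (adjusted p = 0.0087, edgeR), and 0.0925 and 0.0745 were the adjusted p without mouse 1 or 2.

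Mrps30, a large subunit protein of mitochondria despite its name, lies on the minus strand of chr13:118378381-118387252 (ENSMUSG00000021731). It read 31.2, 34.2, 29.1 and 31.3 CPM in untreated and 34.1, 38.3, 37.1 and 37.8 CPM in treated progenitors, and 29.1, 29.5, 29.9 and 30.5 CPM and 34.5, 30.9, 35.7 and 32.5 CPM in HFSCs. It was higher after treatment in 4 of 4 mice in each cell type, although in progenitors the highest untreated library (mouse 2) reached the lowest treated one. The averaged log2 fold change was 0.20 ± 0.0391 (adjusted p = 0.0146, and 0.0883, 0.103 and 0.0829 without mouse 1, 3 or 4).

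Mrpl45, on the plus strand of chr11:97315716-97329920 (ENSMUSG00000018882), went from 37.2 ± 2.04 to 43.3 ± 1.37 CPM in progenitors and from 33.0 ± 1.32 to 36.2 ± 2.26 CPM in HFSCs. Its averaged log2 fold change was 0.18 (adjusted p = 0.0167, and 0.0952, 0.0835 and 0.119 without mouse 1, 2 or 3). Mrps18b, Mrpl19, Mrps7, Mrpl11 and Mrpl46 rose by 0.14, 0.14, 0.13, 0.13 and 0.13 on the log2 scale, and Mrps34 and Mrpl17 by 0.11 each. Mrps7 is a core protein of the small subunit head and Mrpl11 part of the stalk base that contacts elongation factors. All 10 called genes rose in 4 of 4 mice on average. The calls of Mrps18b and Mrpl11 did not survive 17 and 14 of 20 runs without a library or mouse. Those of Mrpl46, Mrpl19 and Mrps7 were lost in 6, 4 and 4 runs, among them every run without a mouse (edgeR, adjusted p up to 0.168, 0.113 and 0.117).

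On the other side Mrpl4 was lower by 0.12 in progenitors and 0.08 in HFSCs, in 4 of 4 mice each, with adjusted p = 0.187 and 0.425. Mrpl23, a neighbour of the tunnel exit, gave -0.12 and -0.07 with adjusted p = 0.265 and 0.554, and Mrpl24 gave -0.11 in HFSCs with adjusted p = 0.278.

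The start regions of 3 called genes are shown because genes of nuclear-encoded mitochondrial proteins often carry sites for NRF1 and ETS factors there, and the matching letters are in capitals. Each line gives 150 bases before and 30 bases after the RefSeq transcription start (GRCm38.p6), 5′ to 3′ on the gene's strand. Mrps22 is on the minus strand at chr9:98601650-98601829, Mrps30 on the minus strand at chr13:118387223-118387402 and Mrpl45 on the plus strand at chr11:97315566-97315745.
Mrps22: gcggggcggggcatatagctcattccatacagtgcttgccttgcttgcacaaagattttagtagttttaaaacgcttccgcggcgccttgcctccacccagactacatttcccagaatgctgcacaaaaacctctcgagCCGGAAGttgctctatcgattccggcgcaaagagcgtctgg
Mrps30: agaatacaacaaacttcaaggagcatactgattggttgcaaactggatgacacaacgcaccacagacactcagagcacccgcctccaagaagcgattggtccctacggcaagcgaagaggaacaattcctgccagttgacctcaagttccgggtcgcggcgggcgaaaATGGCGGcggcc
Mrpl45: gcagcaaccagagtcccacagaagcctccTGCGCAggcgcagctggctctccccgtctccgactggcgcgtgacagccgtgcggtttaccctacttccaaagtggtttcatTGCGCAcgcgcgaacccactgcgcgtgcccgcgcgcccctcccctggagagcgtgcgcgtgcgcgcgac
In Mrps22 the capitals mark the ETS core CCGGAAG, in Mrps30 the YY1 core ATGGCGG and in Mrpl45 2 copies of TGCGCA, the inner part of the NRF1 site.

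RefSeq start regions of 300 bases, 250 before and 50 after the start, were at hand for 68 of the 77 genes and were searched on both strands. TGCGCA occurred in 29.4% of them, compared with 13.8% of the tested genes and 8.06% of all 27025 regions. CCGGAAG occurred in 36.8%, against 17.5% and 9.12%, and ATGGCGG in 19.1%, against 7.85% and 4.19%. Cytosolic ribosomal protein genes, with 57 such regions, had TGCGCA in 17.5%, CCGGAAG in 40.4% and ATGGCGG in 15.8%. The ETS core was thus as frequent there as in the mitochondrial family. The CCAAT box (CCAAT) occurred in 38.2% of them and 38.9% of tested genes, and the E-box CACGTG in 5.88% and 9.95%. These are counts of letters and not of bound factors. The genes also lie close to others. By GENCODE, 32 of 77 (41.6%) start within 1000 bases of the start of a protein-coding gene on the opposite strand. This held for 15.6% of tested protein-coding genes and 19.5% of cytosolic ribosomal protein genes. Mrps11 and Mrpl46 are such a pair, with GENCODE gene starts 412 bases apart. The RefSeq starts used for the regions above can lie elsewhere.

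The other lists moved as follows with N1-AcSpd. All 5 further subunit genes had a log2 fold change above 0 in both cell types, with medians of 0.10 and 0.09, and Gadd45gip1 was called higher on average (0.15 ± 0.027, adjusted p = 0.00815). Of the 26 assembly genes Mtg2 (0.21) and Mrm3 (0.22) were called higher and Mettl17 (-0.09) lower on average. Among translation factors the deformylase gene Pdf was called higher (0.11), and among tRNA synthetases Yars2 was higher (0.18) and Iars2 lower (-0.16).

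The 13 mRNAs of mitochondrial DNA went the other way. Their median log2 fold change was -0.20 in CD34- cells, where all 13 were below 0, and -0.07 in CD34+ cells, where 10 were. The latter was -0.04 without the library of untreated CD34+ mouse 1 and -0.02 without mouse 3. On average 6 were called lower and none higher, namely mt-Co3 (-0.32), mt-Co1 (-0.28), mt-Nd5 (-0.23), mt-Nd4 (-0.18), mt-Nd2 (-0.14) and mt-Atp6 (-0.12). The remaining 7 had averaged values between -0.14 (mt-Nd3, mt-Nd6) and 0.00 (mt-Nd1), with mt-Co2 at -0.10, mt-Atp8 at -0.04, mt-Nd4l at -0.03 and mt-Cytb at -0.03. Their summed level was 11530 ± 483 CPM in untreated and 10134 ± 519 CPM in treated progenitors, and 13358 ± 608 and 11983 ± 236 CPM in HFSCs. For the cytosolic ribosome 8 genes were called lower and none higher on average, with a median of -0.05. The median by mouse was above 0 in mouse 4 (0.03 on average and 0.06 in CD34+ cells), and without mouse 3 the CD34+ median went from -0.04 to -0.01.

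Of 8 differentiated keratinocyte markers none was called by edgeR in CD34- or CD34+ cells (4 and 3 higher at an unadjusted p below 0.05), with medians of 0.23 and 0.31, and 2 were called higher on average. Of 8 HFSC markers tested, 1 was called lower in CD34- cells and 2 on average, where the median was -0.17, and their summed level was 166 and 140 CPM in untreated and treated progenitors and 610 ± 70.3 and 510 ± 80.9 CPM in HFSCs. The part of these markers in the small shift of the 77 genes was not tested.

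The last comparison set the treatment effect in HFSCs against that in progenitors. No gene at all was called by edgeR (0% higher and 0% lower), and at an unadjusted p below 0.05, 1 of the 77 was higher and 2 lower, compared with 1.92% and 2.28% of all genes. DESeq2 called none of the 77, and 0.184% and 0.189% of all genes. Mrps18a had the smallest p. In progenitors it was at 24.8, 28.3, 26.3 and 26.2 CPM untreated and 29.3, 30.8, 29.9 and 31.3 CPM treated, without overlap. In HFSCs it was at 26.3, 27.8, 27.9 and 26.3 CPM untreated and 26.8, 26.5, 25.2 and 24.5 CPM treated, with overlap. The difference of the effects was -0.27 ± 0.0625 in log2, in the same direction in 4 of 4 mice, with unadjusted p = 0.000765 but adjusted p = 1. Mrpl54 differed the other way by 0.15 (unadjusted p = 0.0415, adjusted p = 1), at 57.2 ± 3.00 and 51.7 ± 1.55 CPM in untreated and treated progenitors and 55.2 ± 1.92 and 55.2 ± 2.73 CPM in HFSCs. Neither difference passed the correction.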

How the data were processed

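RNA of 16 libraries was measured by 3′ sequencing with UMIs. The authors demultiplexed the reads with FLEXBAR, placed them on mm10 with Kallisto (0.45.0 in the submitters' processing notes, which also name FastQC 0.11.7, bedtools and DESeq2), assigned them to genes with BEDTools and counted unique UMIs per gene in R. The deposited values are these raw counts. The annotation release and the use of strand are not given in the sources used here, so reads of overlapping genes, antisense ones included, cannot be told apart. The 156050 empty cells were read as 0, and 62 identifiers without a symbol held 0.116% of counts.

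Symbols and positions came from GENCODE M21 (GRCm38). The genes and lists were chosen with earlier results of these data known. 1 further symbol of the same form is not analysed here, and some results of other genes are not reported here. Groups came from the labels, where a replicate number stands for the same mouse in all 4 groups. This identity pairs the libraries in the within-mouse ratios and in the fit with the mouse as a block, but not in the main fit. Deviations from group means over tested genes correlated little between libraries of the same mouse (mean r 0.0237, from -0.0885 to 0.118), and more over the 77 genes (mean r 0.215). Libraries within a group differed by more than sampling noise (chi-square per degree of freedom at least 25.2).

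The fit used R 4.3.3 and edgeR 4.0.16, with TMM factors, genes averaging 5 or more counts, 1 mean per group over all 16 libraries, quasi-likelihood tests and Benjamini-Hochberg adjustment over 19049 genes. The fit was also run on simulated counts with independent libraries, and the outcome is not reported here. Alternatives were DESeq2 1.42.0, other scalings and filters, the mouse as a block, thinning, and leaving out each library and mouse. Within-mouse ratios used log2 of CPM plus 0.5. For each of the 77 genes, the other genes that share any 31-base stretch with it, on either strand, were counted over GENCODE transcripts. Genes named were, for each cell type comparison, the 8 called with the largest change each way, for treatment the called genes (up to 8, else the 3 smallest p each way), plus the Mrps18 genes and those of highest and lowest level. Genes of other lists called in the averaged comparison, the 3 start regions shown and the motifs searched were chosen after values were seen. UMI depth limits the lowest genes most, and p-values rest on 4 animals.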

Additional observations from a re-analysis of the deposited data

Results flagged for a closer look

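In 9 of 136 groups of 4 libraries examined for the named genes, 1 library lay far from the other 3 (its gap to the nearest, relative to the range, passed Dixon's critical value), and chance flags about 1 in 20 groups. In untreated CD34- cells these were mouse 1 for Mrpl14 (49.0 CPM, the others 43.7 to 44.6) and Mrpl48 (33.4 CPM, the others 29.5 to 29.9), mouse 4 for Mrpl24 (46.9 CPM, the others 52.0 to 53.0) and mouse 2 for Mrpl37 (20.8 CPM, the others 21.5 to 21.6). In treated CD34- cells it was mouse 1 for Mrpl9 (28.0 CPM, the others 30.5 to 30.8). In CD34+ cells Mrpl19 was high in mouse 3 both untreated (32.3 CPM, the others 30.4 to 30.6) and treated (36.5 CPM, the others 32.9 to 33.4). Among treated CD34+ libraries Mrpl48 was low in mouse 2 (34.4 CPM, the others 38.7 to 39.3) and Mrps34 high in mouse 3 (87.9 CPM, the others 82.1 to 83.0).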

How the results depend on the processing

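The called counts of the cell type comparisons, 29 untreated and 30 treated, ranged from 17 to 30 and from 19 to 30 when a library or mouse was left out. A log2 fold change over 0.5 as a further condition left 1 gene in each, and without the genes holding widely shared stretches, chosen after seeing the data, 13 and 14 were called. Library totals without TMM moved the cell type medians to 0.0924 and 0.115. For treatment in CD34- cells the count of 0 became 2 with the mouse as a block and 7 with DESeq2, and in CD34+ cells 1 with DESeq2's size factors in edgeR and 3 with DESeq2; leaving out a library or mouse gave 0 to 1 in each. The median in CD34+ cells, 0.05, ranged from 0.0332 to 0.0763 and that of the interaction from -0.0177 to 0.0372, both highest without untreated CD34+ mouse 3. On average over cell types the 10 calls became 3 with no filter on low counts, 19 with the mouse as a replicate block, 19 with DESeq2, 0 beyond a log2 fold change of 0.5, and 0 to 13 without a library or mouse. With no filter, 242 of all 32989 genes were called higher and 203 lower. Apart from the counts for treatment in CD34- cells and on average, the block moved no count of the 77 genes by over 1.5 times. Over all named genes, comparisons and alternatives, a call was lost in 86 and gained in 13 combinations, and was the same in 1403. Thinned to the smallest library, 9 genes were called on average, with the calls of Mrps18b, Mrpl19 and Mrpl11 lost.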
